A study of Mus musculus with 16 samples.

Results

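RNA from the left and right medial prefrontal cortex (mPFC) of resilient mice was compared on 6 arrays, 3 per side, out of the 16 arrays of the series. The arrays were chosen by their labels alone, and no measured value entered the choice. The mice were male C57BL/6 animals (C57BL/6 J in the study's methods) that met aggressive CD-1 mice in repeated social defeats. Resilient mice are those that afterwards still spent more time near an unfamiliar CD-1 mouse than near the empty cage, and susceptible mice are those that avoided it. The series also holds 6 arrays of susceptible mice (3 left, 3 right) and 4 arrays of control mice (2 left, 2 right), which were housed alike and not defeated. The mPFC, prelimbic and infralimbic areas together, was taken the day after the test of social interaction. Equal amounts of RNA from single animals were pooled, and the labels give 7 mice. The study's methods count another number of resilient animals for the arrays. They call arrays of a condition biological replicates, but do not say how pools were divided among the 3 arrays of a side. P values measure the spread between these arrays, which may be in part technical.

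The mPFC weighs threat, reward and social signals and is one of the cortical areas most studied in stress. Its sides hold the same cell types: layered excitatory neurons, inhibitory interneurons, myelinating oligodendrocytes, astrocytes, microglia and vessels. Blood left in the tissue adds RNA of red cells and of myeloid cells such as neutrophils and monocytes. Interferons are cytokines that switch on a shared set of defence genes in nearly every cell type, among them guanylate-binding proteins, immunity-related GTPases and the Ifit and Ifitm families. Left and right mPFC of the same animal share circulating blood, hormones and time of day. The sources do not say whether left and right pools hold the same animals. How much blood stayed in each sample was not measured.

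The tissue label was checked against marker genes. Of 9 listed genes of cortical excitatory neurons, 6 were measured, among them Slc17a7, the vesicular glutamate transporter of cortical neurons, at a log2 intensity of 12.28 in left and 12.30 in right mPFC of resilient mice. The 6 resilient arrays had mean signals of 376 to 552 and 13648 to 14364 detected probes, against 380 to 567 and 13843 to 14397 over the other 10 arrays. Signals followed the order of the deposited table: arrays at positions 1 to 8 had means of 466 to 567, those at 9 to 16 had 376 to 463. All control arrays were among the former, with array 1 of each side of the defeated mice. Levels in control and defeated mice are thus not separated from this order, while left and right of each group were placed alike. Resilient left array 3 had the lowest mean signal and the fewest detected probes of all 16. No pair of resilient arrays was identical.

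The sides of resilient mice differed in few genes. Of 8419 genes tested, 3 were called between left and right at an adjusted p below 0.05 in limma, which is 0.0356% of genes. All 3 were higher in the left mPFC: S100a8, a calcium-binding protein of neutrophils and monocytes, Gbp2, an interferon-induced guanylate-binding protein, and Lyz1, a lysozyme of myeloid and secretory cells. No gene was called higher in the right mPFC. An unadjusted p below 0.05 was reached by 368 genes (4.37%), 187 with the higher mean in left mPFC and 181 with the higher mean in right mPFC. The 3 arrays of one side lay wholly above those of the other for 744 genes (8.84%), 382 with left above right and 362 with right above left. The gene next in order of p, Oasl2, had an adjusted p of 0.42 in limma. The arrays measure RNA of the whole tissue, so more cells of a type and more RNA per cell cannot be told apart.

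**Figure D1:**
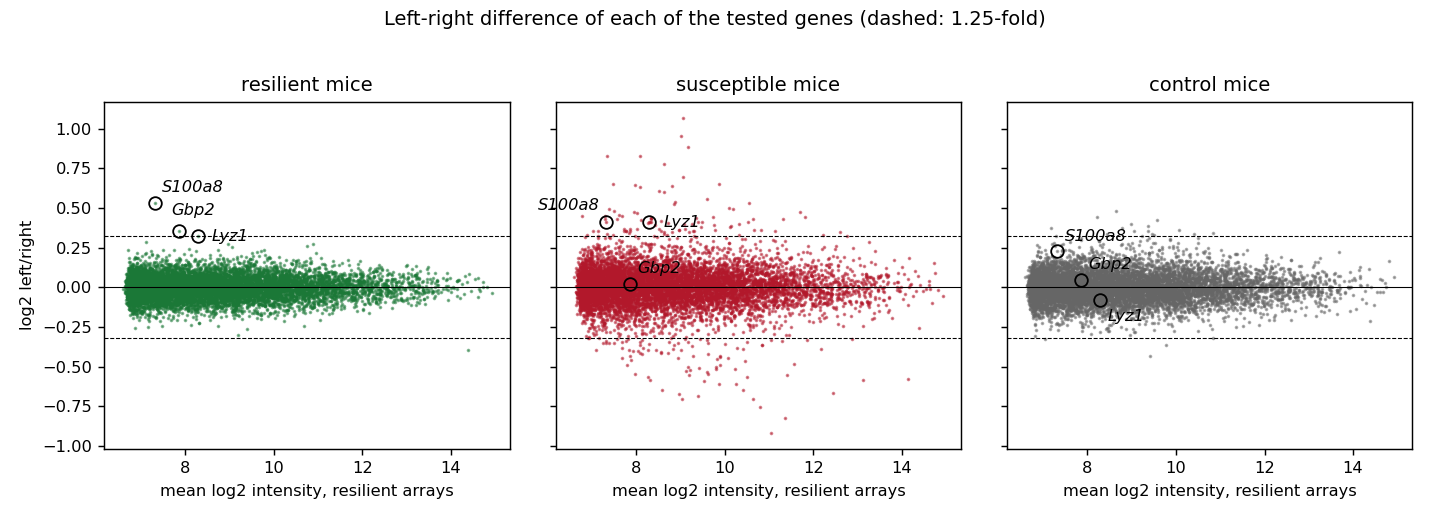
Log2 left/right of each of the 8419 genes (vertical axis) against its mean log2 intensity on the resilient arrays (horizontal axis), in resilient, susceptible and control mice. Dashed lines mark 1.25-fold. In resilient mice 4 genes lie beyond them, against 188 in susceptible and 19 in control mice, and S100a8, Gbp2 and Lyz1 are circled. Control values rest on 2 arrays a side and scatter more.

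To place these genes, their upstream sequence is given from RefSeq (GRCm38.p6), as the 180 bases that end just before the gene's start, 5′ to 3′ on the gene's strand. The first 3 belong to interferon-response genes that were higher on the left or high in resilient mice, as described further on. Capitals mark GAAA, any 2 bases and GAAA again or, on the other strand, TTTC, any 2 bases and TTTC again, the core of an interferon-stimulated response element, searched on both strands. A match describes the letters and is not evidence of a bound site.
Gbp2 (chr3:142620483-142620662, plus strand): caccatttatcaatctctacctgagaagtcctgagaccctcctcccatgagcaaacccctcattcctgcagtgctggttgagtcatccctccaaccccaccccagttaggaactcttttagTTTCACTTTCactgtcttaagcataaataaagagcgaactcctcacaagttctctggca
Irgm2 (chr11:58214797-58214976, plus strand): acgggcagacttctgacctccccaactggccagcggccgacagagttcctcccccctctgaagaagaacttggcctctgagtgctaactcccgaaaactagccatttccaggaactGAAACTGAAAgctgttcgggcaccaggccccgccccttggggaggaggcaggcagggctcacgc
Ifit3 (chr19:34583349-34583528, plus strand): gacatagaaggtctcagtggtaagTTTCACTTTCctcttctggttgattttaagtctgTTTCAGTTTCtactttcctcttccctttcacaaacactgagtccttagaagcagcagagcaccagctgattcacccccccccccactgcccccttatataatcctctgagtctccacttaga
In Gbp2 the match lies 59 to 50 bases before the start and in Irgm2 64 to 55 bases before it, and Ifit3 has 2 matches. Within 250 bases upstream, these letters occur in 9 of the 20 measured interferon-response genes with a promoter entry, 45%, against 3.1% of the 6896 tested genes with an entry and 3.46% of all 27025 genes of the table. Oasl2 has none in this window.

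The next 3 are the myeloid genes. Capitals mark AGGAAGT or, on the other strand, ACTTCCT, the letters bound by factors of the ETS family, a motif picked after these stretches had been read.
S100a8 (chr3:90668891-90669070, plus strand): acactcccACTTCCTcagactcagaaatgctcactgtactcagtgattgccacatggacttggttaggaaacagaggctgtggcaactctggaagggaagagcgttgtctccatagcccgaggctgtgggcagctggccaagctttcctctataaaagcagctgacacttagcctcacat
Lyz1 (chr10:117292869-117293048, minus strand): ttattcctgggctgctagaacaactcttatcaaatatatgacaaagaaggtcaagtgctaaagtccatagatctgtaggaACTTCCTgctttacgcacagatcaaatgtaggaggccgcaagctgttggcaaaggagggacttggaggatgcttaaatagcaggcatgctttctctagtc
Lyz2 (chr10:117282273-117282452, minus strand): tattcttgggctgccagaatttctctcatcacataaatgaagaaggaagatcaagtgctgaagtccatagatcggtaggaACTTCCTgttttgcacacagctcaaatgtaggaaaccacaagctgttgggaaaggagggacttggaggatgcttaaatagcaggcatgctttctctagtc
The letters occur in the 250 upstream bases of all 4 measured myeloid genes of the list. For the 3 shown, the match was known when the motif was picked, and the fourth is Ly6c1. The letters occur in 7.7% of the tested genes with an entry and 8.8% of all genes of the table. Because of how the motif was picked, these shares do not show an excess in myeloid genes. Lyz1 and Lyz2, neighbouring lysozyme genes, have the same base at 135 of the 180 positions shown (75%), and the last 50 bases before the start are identical. The probes' own sequences were not used here, so how far a Lyz1 probe also binds Lyz2 RNA is not known.

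S100a8, which pairs with S100a9 as calprotectin, showed the largest difference between the sides. Its log2 intensity was 7.58, 7.61 and 7.58 on the left arrays, against 7.01, 7.08 and 7.08 on the right arrays. The 3 left values lay within 0.04 of each other and above every right value. The difference was 0.53 ± 0.06 (log2 L/R ± SE, n = 3 arrays a side, adjusted p = 1.4e-05, limma), 1.45-fold, with a 95% interval of 0.41 to 0.65. Susceptible mice had 7.30, 7.23 and 7.26 on the left, against 6.91, 6.90 and 6.74 on the right. Control mice had 7.10 and 7.14 on the left, against 6.88 and 6.91 on the right. The left arrays were thus above the right arrays in each group of mice, by 0.53 in resilient, 0.41 in susceptible and 0.23 in control mice. The test of the difference between resilient and susceptible mice gave 0.12 ± 0.08 (adjusted p = 0.62, limma).

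Lyz1 had 8.43, 8.41 and 8.49 on the left arrays of resilient mice, against 8.16, 8.07 and 8.12 on the right arrays. The sides did not overlap, and the difference was 0.32 ± 0.06 (log2 L/R ± SE, adjusted p = 0.036, limma). In susceptible mice the left arrays had 8.38, 8.43 and 8.39, against 8.05, 8.01 and 7.90 on the right. Control mice had 8.02 and 7.99 on the left, against 8.01 and 8.16 on the right. Both groups of defeated mice were thus high on the left only, while the control values of the sides overlapped. The differences of 0.32 in resilient and 0.41 in susceptible mice were not called different (adjusted p = 0.76, limma). The difference between resilient and control mice, 0.40, was not called either (adjusted p = 0.80, limma).

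Lyz2, the lysozyme of macrophages and microglia, had 7.15, 7.16 and 7.04 on the left, against 7.03, 6.75 and 6.99 on the right. The lowest left array was just above the highest right one, and the difference of 0.20 ± 0.07 did not pass (adjusted p = 0.99, limma). A second Lyz2 probe, also detected on all 16 arrays, had 7.04, 7.10 and 6.90 on the left, against 6.94, 6.85 and 6.95 on the right. Its sides overlapped, at a difference of 0.10. The other probes of Lyz1 and of Gbp2 were detected on no array. S100a9 was not among the genes tested, because its probe was detected on 3 left arrays and 1 right array. It had 6.83, 6.69 and 6.93 on the left, against 6.56, 6.48 and 6.48 on the right, a difference of 0.31 near the detection limit. Csf3r, the receptor for granulocyte colony-stimulating factor, was also left untested and had 6.76, 6.84 and 6.78 on the left, against 7.00, 6.76 and 6.80 on the right.

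Of the 18 listed genes of blood myeloid cells, 4 were tested, 2 were called and 3 had the left arrays above the right ones, with a median log2 L/R of 0.26. Lyz2 counts among the 3 by its brightest probe only. Over all genes 0.0356% were called, and 382 of 8419 had the left arrays above the right ones. The fourth, Ly6c1, a surface protein of monocytes and endothelium, was at -0.09. The granule genes Camp, Mpo, Retnlg, Fcnb and Mmp8 and the neutrophil chemokine receptor Cxcr2 were detected on none of the 6 resilient arrays. Red cell genes moved less. All 4 tested had a higher mean on the left, with a median of 0.06, and none reached an unadjusted p below 0.05. They were Hbb-bt at 0.15, Alas2 at 0.06, Car2 at 0.05 and Hba-a1 at 0.01. Hba-a1, an alpha globin, had 12.77, 12.85 and 12.68 on the left, against 12.63, 12.81 and 12.83 on the right, and the sides overlapped. In susceptible mice, where S100a8 and Lyz1 were also higher on the left, Hba-a1 had 13.24, 13.27 and 13.11 on the left, against 12.93, 12.89 and 12.82 on the right. The part of blood in the myeloid difference was not tested.

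Gbp2, a GTPase that interferon gamma induces strongly, had 7.98, 8.06 and 8.05 on the left arrays, against 7.60, 7.74 and 7.68 on the right arrays. The sides did not overlap, and the difference was 0.36 ± 0.06 (log2 L/R ± SE, adjusted p = 0.014, limma), 1.28-fold. In susceptible mice Gbp2 had 7.11, 7.10 and 7.04 on the left, against 7.02, 7.06 and 7.10 on the right. In control mice it had 7.07 and 6.93 on the left, against 6.92 and 6.99 on the right. Neither group showed a difference between the sides beyond 0.05, and the test of resilient against susceptible mice was called at 0.33 ± 0.09 (adjusted p = 0.035, limma). The test of resilient against control mice was not called for Gbp2 or any other gene (lowest adjusted p = 0.80, limma). Every resilient array, right ones included, was above all 10 other arrays. Of the 3 genes called between the sides, Gbp2 was the only one whose difference was also called against susceptible mice. The difference by which these genes were picked enters that test, so the call is not independent evidence.

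Gbp2 was 1 of 23 measured genes of the interferon response list. In these, 1 was called, 5 reached an unadjusted p below 0.05, all with left above right, and 18 of 23 had a higher mean on the left. Over all 8419 genes 0.0356% were called, 187 reached that p with left higher, and 4187 had a higher mean on the left. The median log2 L/R was 0.05, against 0.00 over all genes, and ran from 0.02 to 0.08 over the alternative settings. Oasl2, related to the oligoadenylate synthetases that sense double-stranded RNA, had 7.21, 7.34 and 7.21 on the left, against 7.07, 7.01 and 6.82 on the right. All left values exceeded the right ones, but the difference of 0.29 ± 0.07 did not pass (adjusted p = 0.42, limma). Ifitm3, a membrane protein that restricts virus entry, was at 0.18 ± 0.06, and Ifit3, an interferon-induced antiviral gene, at 0.17 ± 0.06. Irgm2, an immunity-related GTPase, had 7.69, 7.74 and 7.67 on the left, against 7.50, 7.55 and 7.63 on the right. The remaining members lay between -0.10 for Ifit2 and 0.14 for Zbp1, a sensor of nucleic acids.

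**Figure D2:**
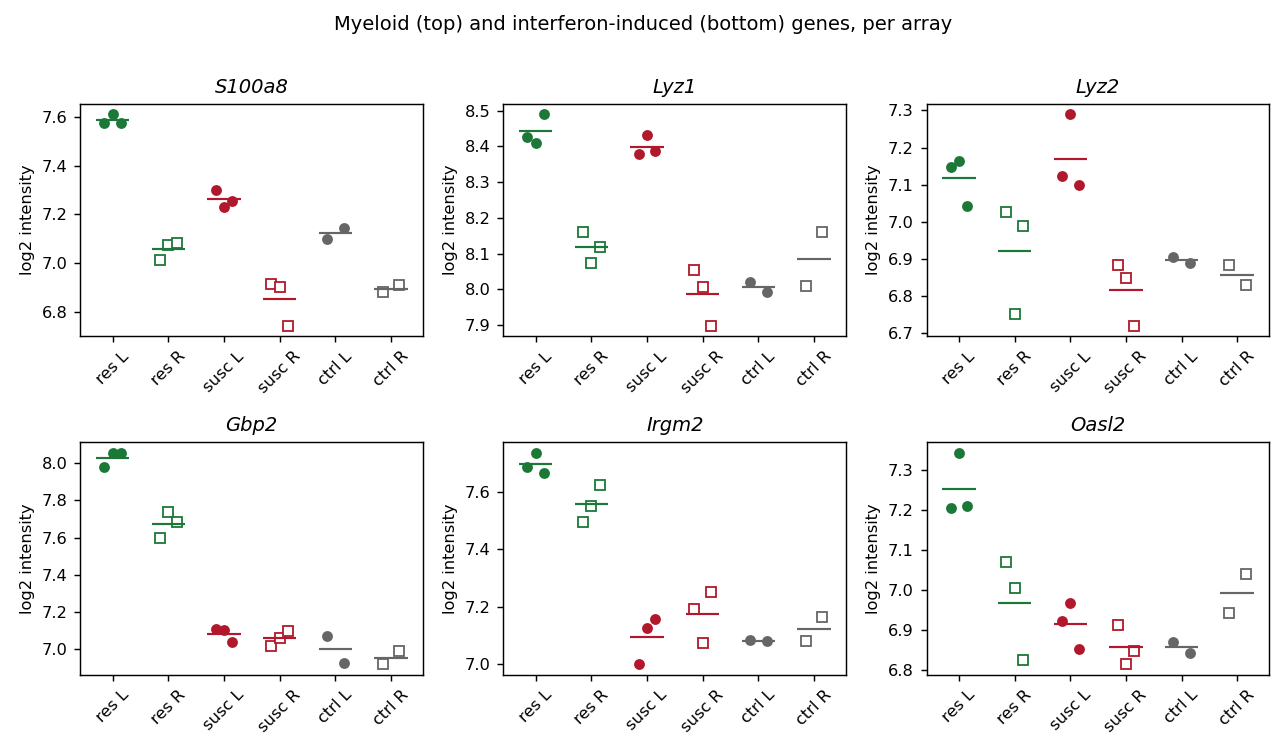
Log2 intensity (vertical axis) on each array, with left mPFC as filled circles and right mPFC as open squares, bars at group means, and groups in the order resilient, susceptible and control. S100a8, Lyz1 and Lyz2 were higher on the left in resilient and in susceptible mice, and S100a8 and Lyz2 also in control mice. The difference of Lyz2 in resilient mice did not pass. Gbp2 and Irgm2 were high on both sides of resilient mice, above all other arrays.

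Some interferon-induced GTPases were high on both sides of resilient mice. All 6 resilient arrays lay above the 10 other arrays for 23 of the 8419 genes, 0.273%, and for 4 of the 23 interferon genes: Gbp2, Gbp3, Igtp and Irgm2. The same held for 2 of the 11 striatal neuron genes, Drd1 and Rgs9, and for 1 of the 9 oligodendrocyte precursor genes, Enpp6. The other lists held no further gene of this kind. These counts were chosen after the values had been seen, and no test goes with them. Irgm1, a GTPase of the family of Irgm2, had 12.74, 12.68 and 12.61 on the left and 12.65, 12.56 and 12.78 on the right. The other arrays had 12.53 to 12.87, so Irgm1 was not set apart. Gbp3, a relative of Gbp2, had 7.76, 7.66 and 7.69 on the left and 7.88, 7.68 and 7.69 on the right of resilient mice, against 7.27 to 7.49 on the 10 other arrays. Igtp, another immunity-related GTPase, had 7.62, 7.69 and 7.75 on the left and 7.53, 7.69 and 7.67 on the right, against 7.00 to 7.25 on the others. The sides overlapped for both, with log2 L/R of -0.05 and 0.05. Cxcl10, an interferon-induced chemokine, was outside the tested genes because its probe was below the detection limit on most arrays. It was detected on all 3 left arrays of resilient mice, at 6.56, 6.57 and 6.61, and on none of the other 13 arrays, with 6.35, 6.25 and 6.33 on the right. Of all 25697 probes, 23 were detected on the 3 left and on no right array of resilient mice, 17 the other way round, and 12347 on all 6.

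**Figure D3:**
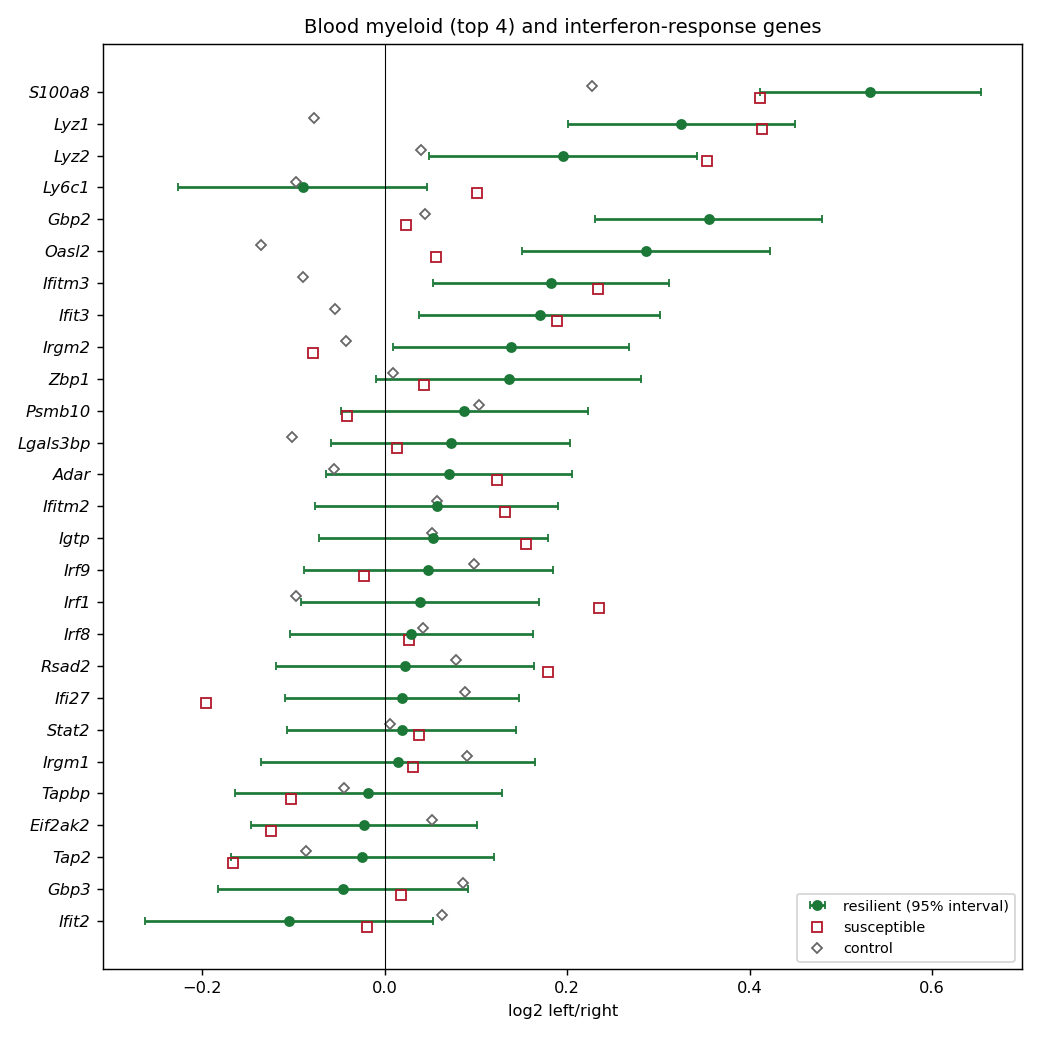
Log2 left/right (horizontal axis) of the 4 tested blood myeloid genes and the 23 tested interferon-response genes. Green circles give resilient mice with the 95% interval of the fit, red squares susceptible mice and grey diamonds control mice. The intervals of S100a8, Lyz1, Gbp2 and Oasl2 lie farthest above 0, and 18 of the 23 interferon genes lie above 0.

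Beyond the called genes, the 10 genes next in order of p on the left side ran from 0.20 to 0.29 and those on the right side from -0.30 to -0.19, and none passed. On the left side they included Cnr1, the cannabinoid receptor of the brain, with 7.81, 7.87 and 7.88 on the left against 7.59, 7.63 and 7.65 on the right. They also included Scn4b, a sodium channel beta subunit, with 9.68, 9.73 and 9.77 against 9.51, 9.48 and 9.51. Others were Xlr4a (0.26), the glia maturation factor Gmfb (0.24), Ccdc85a, Tmem229b, the dynactin subunit Actr1a, Map7d2 and the splicing factor Rbm39. On the right side they included Kcnt1, a sodium-activated potassium channel, with 7.34, 7.41 and 7.26 on the left against 7.51, 7.55 and 7.59 on the right. Siglech, a lectin of microglia, had 8.31, 8.22 and 8.07 on the left, against 8.45, 8.35 and 8.48 on the right. The others were Radil (-0.25), Pkib (-0.26), the endosomal GTPase Rab5a (-0.21), Slitrk3, a synaptic adhesion protein (-0.21), Fem1al, Arhgef1, Mzt1 and Hspbap1. The genes were picked by p, which nearly fixes that sides do not overlap, as held for 19 of the 20 and for 8.84% of all genes.

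The sides were otherwise close. The median absolute log2 L/R was 0.047, and 95% of genes lay within 0.139 and 99% within 0.187. Beyond 1.25-fold lay 4 genes, the 3 called ones and Rexo1, and none lay beyond 1.5-fold. With background correction S100a8 lay beyond it, at a log2 L/R of 0.92. Rexo1, an exonuclease gene with one of the brightest probes, had 14.84, 14.11 and 13.63 on the left, against 14.89, 14.29 and 14.57 on the right. Its sides overlapped, and the difference of -0.39 ± 0.18 did not pass (adjusted p = 0.99, limma). With the same fit, 188 genes lay beyond 1.25-fold between the sides of susceptible mice and 28 beyond 1.5-fold, against 19 and 0 in control mice. Control mice had only 2 arrays a side, which widens the scatter of their differences, so these counts do not rank resilient against control mice. The 95% interval of the difference lay within 1.25-fold in either direction for 8232 genes (97.8%) of resilient mice and within 1.5-fold for 8417. The share within 1.25-fold was 60.9% under median scaling and 71.9% with background correction. The median interval reached 0.137 to each side of the estimate, and Oasl2 at 0.29 did not pass the adjusted threshold.

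Arrays of opposite sides were about as close to each other as arrays of the same side. Over all genes, the median absolute difference between a left and a right array of resilient mice was 0.082 (median of 9 pairs, 0.067 to 0.095). Between arrays of the same side it was 0.084 (median of 6 pairs, 0.078 to 0.090). The ranges overlapped. Across genes, which are not independent replicates, the mean intensities of left and right correlated with a Pearson r of 0.999.

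The genes that the study tied to laterality after defeat were close between the sides of resilient mice. Ccn2, the connective tissue growth factor also known as Ctgf, had 11.04, 11.09 and 11.07 on the left, against 11.07, 11.06 and 10.97 on the right. In susceptible mice it had 10.19, 10.22 and 10.18 on the left, against 11.07, 11.17 and 11.10 on the right. Both sides of resilient mice were thus at the level of the right side of susceptible mice, while control arrays ran from 10.15 to 10.38. The difference between the sides was 0.03 ± 0.06 in resilient and -0.92 in susceptible mice, and it differed between these groups by 0.95 ± 0.08 (adjusted p = 8e-08, limma). Mbp, the myelin basic protein, had 14.11, 14.20 and 14.20 on the left, against 14.14, 14.16 and 14.08 on the right. Its left arrays in susceptible mice were at 13.61, 13.58 and 13.57, against 14.20, 14.18 and 14.12 on the right.

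Rprm, which halts the cell cycle and marks deep layers of cortex, had 11.38, 11.29 and 11.43 on the left of resilient mice, against 11.11, 11.52 and 11.49 on the right. Trf, the iron carrier made by oligodendrocytes, had 10.85, 10.75 and 10.71 on the left, against 10.88, 10.79 and 10.75 on the right. Both overlapped between the sides. Cux2, a transcription factor of upper layers, had 8.98, 9.18 and 9.15 on the left, against 8.92, 9.13 and 9.01 on the right. Susceptible mice had Cux2 at 9.42, 9.42 and 9.53 on the left, against 8.22, 8.59 and 8.35 on the right, with the resilient arrays of both sides between these ranges. Wfs1, an endoplasmic reticulum protein, came nearest to a difference, at 0.17 ± 0.07 (adjusted p = 0.99, limma), with overlapping sides. Tnnc1, a troponin, was at -0.10 ± 0.07 and Igf2, a growth factor of meninges and vessels, at 0.07 ± 0.07. All 8 differed in laterality from susceptible mice, 4 upward and 4 downward, with adjusted p from 8e-08 to 0.0023 in limma. The study chose these genes on these samples, so the direction in susceptible mice is not independent evidence.

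**Figure D4:**
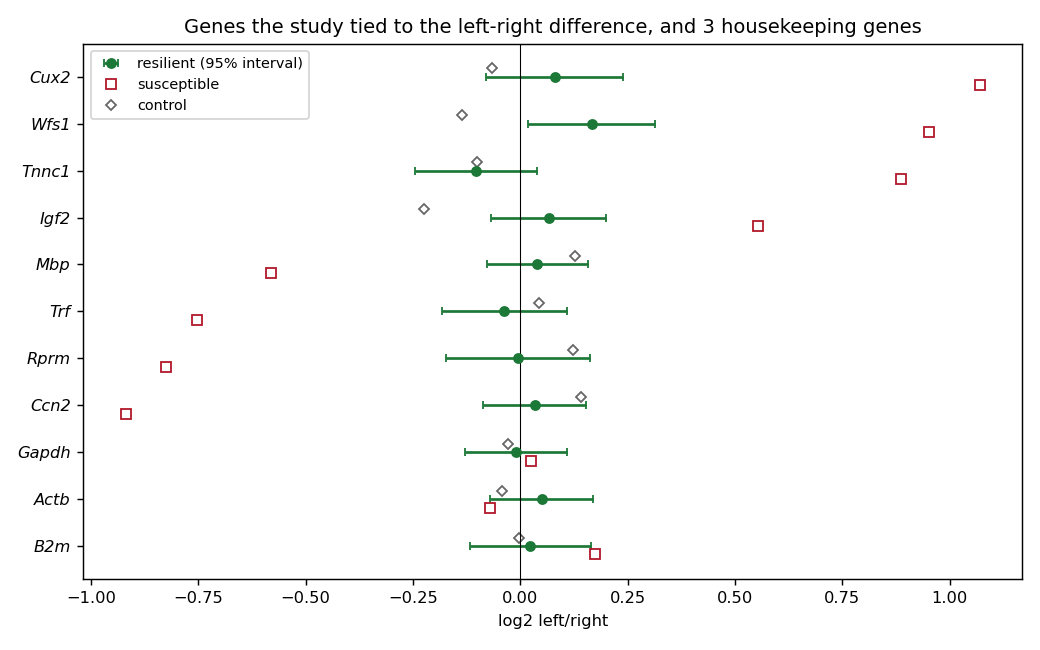
Log2 left/right (horizontal axis) of the 8 genes the study tied to laterality and of Gapdh, Actb and B2m. Green circles give resilient mice with the 95% interval, red squares susceptible mice and grey diamonds control mice. The resilient values lie between -0.10 and 0.17, while those of susceptible mice run from -0.92 to 1.07.

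The housekeeping genes were level. Gapdh, a glycolytic enzyme, was at -0.01 ± 0.06, Actb, the cytoplasmic actin, at 0.05 ± 0.06, and B2m, the light chain of class I molecules, at 0.02 ± 0.07 (log2 L/R ± SE). The 12 housekeeping genes tested had a median of 0.01.

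Over all genes, the difference between the sides was tested against that of the other groups. Against susceptible mice 181 genes were called, 2.15% of those tested, 94 with a higher log2 L/R in resilient mice and 87 with a lower one. Against control mice no gene was called (0%), with 329 genes at an unadjusted p below 0.05 and a lowest adjusted p of 0.80 in limma. Both comparisons use the same 6 resilient arrays.

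Myelin genes were level in resilient mice. Of 23 tested, none was called, none reached an unadjusted p below 0.05, 12 had a higher mean on the left and 11 on the right, and the median log2 L/R was 0.00. In susceptible mice the median was -0.55 and in control mice 0.13, and 21 of the 23 were called higher in laterality in resilient than in susceptible mice. Cldn11, a tight junction protein of myelin, was at 0.04 ± 0.06 and Mal, a lipid raft protein, at 0.07 ± 0.08. The lowest of the 23 was Ndrg1, which stabilises myelin, at -0.14, and the highest was Opalin, a myelin membrane protein, at 0.10. Oligodendrocyte precursor genes had a median of 0.00 over 9, with the growth factor receptor Pdgfra at 0.07.

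Neurons of the cortical layers were level as well. The 8 upper layer genes had a median of -0.01, against 0.59 in susceptible mice, and 6 of them were called lower in laterality in resilient mice, among them Lpl and Cpne4. The 16 genes of layer 6 and 6b had a median of 0.00, against -0.31 in susceptible mice, with 5 called higher. The 14 genes of layer 5 had a median of 0.00 in resilient and -0.05 in susceptible mice, and none was called. Interneuron genes had a median of 0.02 over 15. Gad1, which makes GABA, was at 0.13 ± 0.09, Sst, the peptide somatostatin, at 0.03 ± 0.08, and Reln, which guides cortical layering, at -0.13 ± 0.06 with right above left. Striatal neuron genes, which could come from tissue next to the mPFC, had a median of 0.07 over 11, 9 of them higher on the left, and 2 at an unadjusted p below 0.05, Ido1 (0.22 ± 0.07) and Gng7 (0.17 ± 0.07). None of the 11 was called.

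Glia and vessels gave small shifts. Of 19 astrocyte genes, 17 had a higher mean on the left, with a median of 0.06, but only Sparcl1, a secreted synapse-organizing protein, reached an unadjusted p below 0.05 (0.26 ± 0.12), and none was called. Under median scaling, which lowered the median of all genes by 0.04, the astrocyte median was 0.00. Of 19 microglial genes, 4 reached an unadjusted p below 0.05 with left higher: the fractalkine receptor Cx3cr1 (0.18), the complement subunit C1qb (0.18), and the Fc receptor genes Fcer1g (0.17) and Fcgr3 (0.15). Siglech did so with right higher, and the list's median was 0.02, or -0.02 under median scaling. Meningeal fibroblast genes had a median of 0.03 over 10, against 0.49 in susceptible mice, and 6 were called lower in laterality in resilient mice. Dcn, a matrix proteoglycan of the meninges, was at -0.09 ± 0.06. Acta2, the smooth muscle actin of vessels, had 8.34, 8.54 and 8.50 on the left, against 8.65, 8.72 and 8.63 on the right. Its difference of -0.20 ± 0.07 did not pass (adjusted p = 0.98, limma), while its difference from susceptible mice did, at -0.62.

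Genes that follow neuronal activity did not differ in a common direction. The 15 rapid immediate early genes had a median of -0.01, against 0.28 in susceptible mice, and 6 were called lower in laterality in resilient mice. Egr1, an activity-induced transcription factor, was at -0.03 ± 0.07, Dusp1, a kinase phosphatase, at 0.15 ± 0.06, and Gadd45b, a stress-induced gene, at -0.19 ± 0.07. The 19 circadian clock genes had a median of -0.04. Per1 and Per3, repressors of the clock, were at -0.19 ± 0.08 and -0.19 ± 0.06, each with the right arrays above the left ones, and neither passed. Receptors and targets of glucocorticoids had a median of -0.01 over 17, with Tsc22d3, a glucocorticoid-induced repressor, at -0.09 ± 0.09.

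Receptors, channels and peptides followed the same pattern. The medians were -0.04 over 14 glutamate receptor genes, -0.02 over 9 GABA receptor genes, 0.00 over 17 voltage-gated channel genes and -0.01 over 45 potassium channel genes. None of their members was called. Grik4, a kainate receptor subunit, was at -0.17 ± 0.07, Kcnd2, an A-type potassium channel, at 0.19 ± 0.07, and Kcnj6, a G protein-gated channel, at -0.16 ± 0.07. Crhr1, the main receptor of corticotropin-releasing hormone, was at -0.20 ± 0.08 with overlapping sides. Oprk1, the kappa opioid receptor, had the left arrays above the right ones at 0.19 ± 0.07, against -0.32 in susceptible mice, a difference between the groups of 0.51 (adjusted p = 0.0021, limma). Pdyn, the precursor of its dynorphin ligands, was at -0.11 ± 0.06, against 0.44 in susceptible mice.

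Genes of basic cell functions were also close between the sides. The median was 0.02 over 75 respiratory chain genes, 0.02 over 50 cytosolic ribosomal proteins, 0.02 over 38 proteasome genes, 0.01 over 61 chaperones, -0.04 over the 20 tested genes of the glycolysis list and 0.00 over 75 chromatin-modifying enzymes. The signs of the first 4 turned under median scaling, to -0.03 for the respiratory chain, ribosomal and proteasome genes and -0.04 for chaperones. For 72 of the 75 respiratory chain genes the 95% interval of the difference lay within 1.25-fold in either direction. Atp5b, a subunit of ATP synthase, was at -0.02 ± 0.06 and Rpl41, the brightest ribosomal gene, at 0.00 ± 0.07. The lowest gene of the glycolysis list, Pigq at -0.16, is not a glycolytic enzyme and entered through a shared older symbol.

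By the median of each gene list, the sides of resilient mice agreed closely. Members that differ in opposite directions cancel in such a median. The median absolute log2 L/R was 0.11 over glutamate receptor, 0.09 over striatal neuron and 0.07 over monoamine and neuropeptide receptor genes. Over all genes it was 0.047, and over layer 5 genes 0.02. Over 51 gene lists, 8 of them from the study, which chose those on these samples, the medians of log2 L/R ran from -0.04 to 0.26, and 50 lay within 0.1 of 0, the exception being blood myeloid cells. Within 0.05 of 0 lay 46 lists in resilient mice, against 23 in susceptible and 37 in control mice. Control values rest on 2 arrays a side and scatter more, so their count is not like for like. Medians in susceptible mice ran from -0.58 to 0.59 and in control mice from -0.14 to 0.13. All lists were chosen with earlier results of these data known, so the contrast with susceptible mice is not independent evidence. Under median scaling the resilient medians ran from -0.10 to 0.22, with the circadian clock at -0.09 and glutamate receptors at -0.08. Only the blood myeloid and the interferon lists held a called gene.

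**Figure D5:**
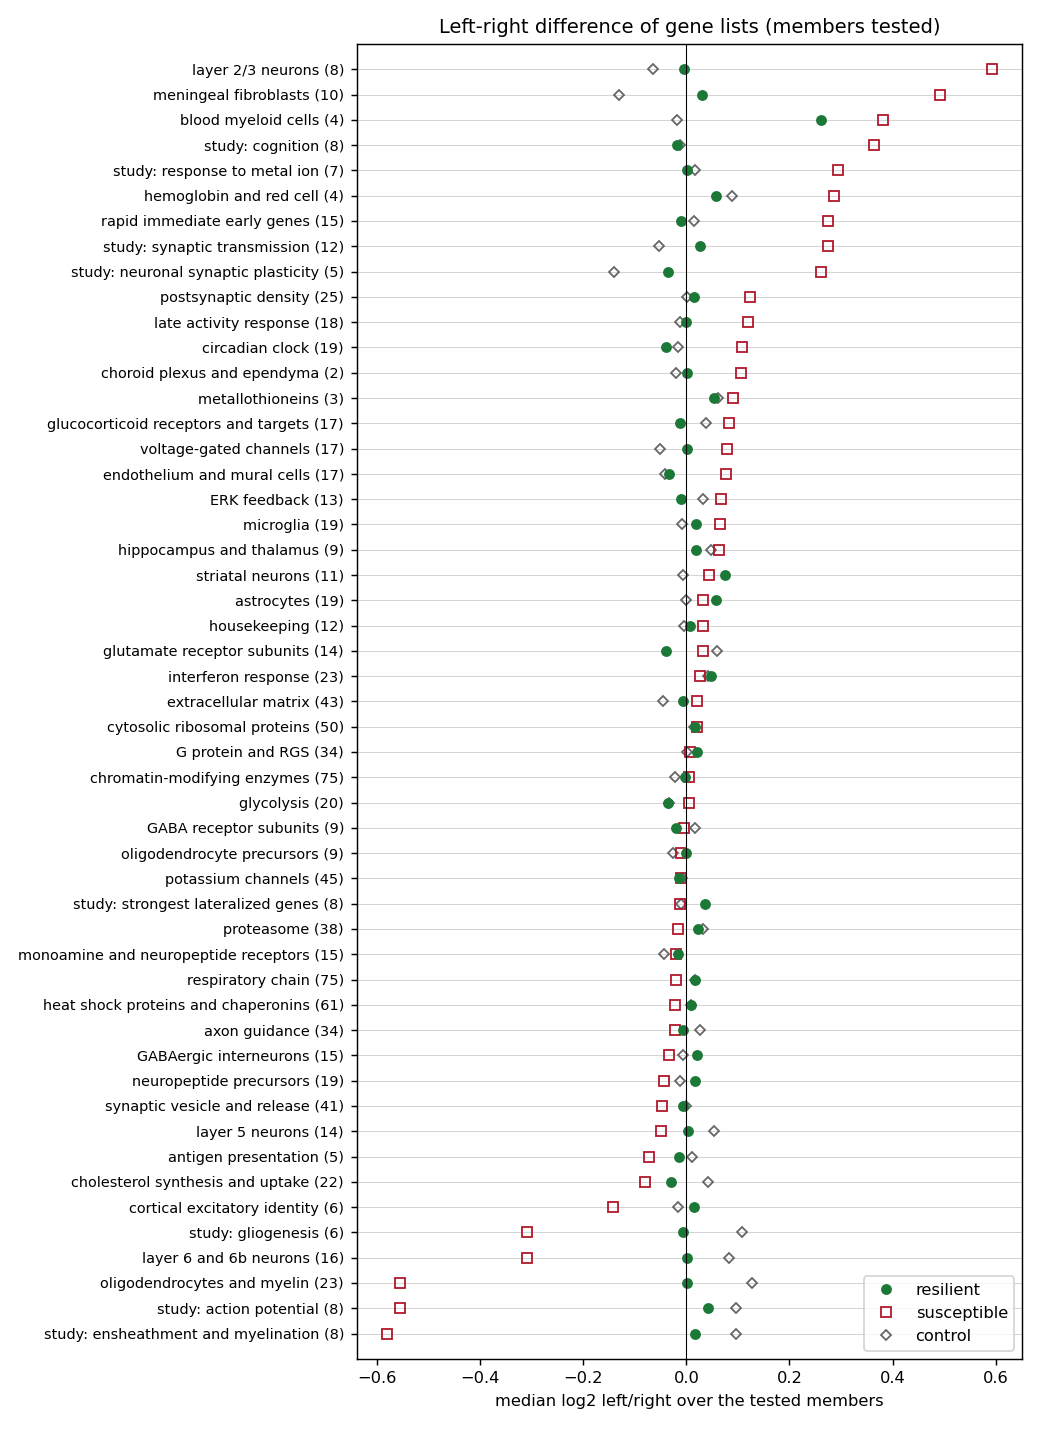
Median log2 left/right (horizontal axis) of the tested members of 51 gene lists (rows, with the number tested), sorted by the value in susceptible mice. Resilient mice are green circles, susceptible mice red squares and control mice grey diamonds. The resilient values lie within 0.1 of 0 except for blood myeloid cells at 0.26, while susceptible values run from -0.58 to 0.59.

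The 3 calls differed in how firmly they stood. S100a8 was called under 30 of 31 alternative settings, Gbp2 under 23 and Lyz1 under 16, and none of the 3 changed sign. With each array scaled to a common median in place of equal quantiles, none of them was called, at log2 L/R of 0.50, 0.31 and 0.27. Lyz1 lost its call without any single resilient array (adjusted p = 0.092 to 0.45, limma) and without either left control array (0.062). Gbp2 lost it when left array 2 (0.092), left array 3 (0.15), right array 1 (0.15) or right array 3 (0.079) of resilient mice was left out. Since no background was subtracted, intensities near the detection limit understate a fold. With background correction the differences were 0.92 for S100a8, 0.50 for Gbp2 and 0.41 for Lyz1, and S100a8 alone was called.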

How the data were processed

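RNA was hybridised to Illumina MouseRef-8 v2 arrays, and GenomeStudio 1.0.6, lumi (version not given in the sources used here) and limma are named in the submitters' processing notes. The deposited table gives, per probe and array, an average signal as linear intensity without background subtraction. It also gives a deposited detection score, which equals 1 minus the detection p. The authors' normalized log2 values were used as an alternative only.

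Intensities were set to log2 and quantile normalized over all 16 arrays. Probes with a detection p of at most 0.05 on all 16 arrays were kept, and the brightest probe stood for each gene, which left 8419 of 16593 named genes. Limma 3.58.1 (R 4.3.3) was fitted to the 6 groups, with Benjamini-Hochberg adjustment over all genes, a threshold of 0.05, and 10 residual degrees of freedom. The scripts were tested on simulated data. The number of arrays limits the precision. Figures used matplotlib 3.10.9.

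Named genes were the called ones, the 10 next in order of p on each side, the 8 genes the study tied to laterality, 3 housekeeping genes, up to 3 members of each list with the largest absolute difference and its brightest member, and myeloid, red cell and interferon genes with an unadjusted p below 0.05. Others, such as Gbp3, Igtp, S100a9, Csf3r, Cxcl10, Rexo1, Fcer1g, Fcgr3, Ifit2, Zbp1, Rgs9 and Enpp6, were named after their values were seen. The members and the lists were chosen with earlier results of these data known. The alternatives changed the scaling, background correction, detection filter, probe rule, arrays fitted, variance model, blocks, or left out each array in turn.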

Additional observations from a re-analysis of the deposited data

Results flagged for a closer look

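The difference between the sides (log2 L/R) differed between resilient and susceptible mice for 30 of the 182 named genes, by limma's test of the difference itself. Over all 8419 genes tested it did so for 181 (2.15%). It was higher in resilient mice for 15 of them. Among genes of myelin and oligodendrocytes the difference between the groups was 0.62 for Mbp, 0.72 for Trf, 0.39 for Tspan2, 0.50 for Opalin, 0.51 for Adamts4, 0.63 for Mal and 0.62 for Cldn11. Among neuronal genes it was 0.82 for Rprm, 0.77 for Scn4b, 0.51 for Oprk1 and 0.40 for Drd1, the D1 dopamine receptor. The others were Ccn2 at 0.95, Gbp2 at 0.33, Tmem229b at 0.35 and Rbm39 at 0.41.

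It was lower in resilient mice for the other 15. Upper layer and interneuron genes among them were Cux2 at -0.99, Wfs1 at -0.79, Lpl at -0.49, Cpne4 at -0.52 and Reln at -0.49. Genes of meninges and vessels were Igf2 at -0.49, Dcn at -0.92 and Acta2 at -0.62. Genes that follow activity or the clock were Per1 at -0.50, Bhlhe40 at -0.50 and Vgf at -0.34. Tnnc1 was at -0.99, Slitrk3 at -0.34, Cacng3, a regulator of AMPA receptors, at -0.54, and Pdyn at -0.55. For Gbp2, Tmem229b, Scn4b, Rbm39 and Slitrk3 the genes had first been picked for their difference in resilient mice, which enters this test. The same holds for list members named for the largest absolute differences of their list in resilient mice, such as Opalin, Acta2 and Oprk1. The genes the study tied to laterality were chosen by the study on these samples, and the susceptible arrays also enter this test. The test is thus not independent of how these genes were picked.

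A further 3 genes outside the tested set had probes detected on the left arrays of resilient mice. Cxcl10 differed by 0.27 (log2 L/R) and Olfr243, an olfactory receptor, by 0.10, and neither was detected on a right array of resilient mice. Gh, growth hormone, had 7.01, 6.94 and 6.82 on the left, against 6.65, 6.61 and 6.49 on the right, where 2 of the arrays detected it. Its difference of 0.34 is given as a description, since the gene entered only through the side where it was high.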

How the results depend on the processing

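The count of 3 genes called between the sides of resilient mice was 0 under median scaling, where 22 genes had an unadjusted p below 0.05 in limma. It was 1 with background correction from detection p, 1 with only the arrays of the compared groups and 1 with quantiles over the 6 resilient arrays. The last pair leave fewer arrays to estimate the spread or the scale, and otherwise the cause was not tested. With single arrays left out it ran from 1 to 3, and under the other settings from 2 to 4, with Gh, which entered only through the side where it was high, as the fourth gene when the detection filter was loosened. Without resilient left replicate 1, Mzt1 was called higher on the right. The count of 181 genes that differed from susceptible mice was 1 under median scaling, 140 to 183 with single arrays left out and 158 to 233 otherwise. Against control mice the count was 0 throughout. With group means taken out, same-numbered arrays correlated at 0.34, -0.02 and 0.06 in resilient mice, where other-number pairs ran from -0.26 to 0.20. In susceptible mice they correlated at 0.19, 0.17 and 0.09, and all other-number pairs were below 0. The third of these is under 0.1, and 3 arrays a side are too few to show whether the numbers pair samples, so no pairing was assumed. With the replicate block 2, 232 and 0 genes were called in these 3 comparisons. No called gene turned its direction. Near the detection limit, intensity over background limits what can be measured: with background correction S100a8 was at 0.92 in place of 0.53. The differences that could be seen were limited by 3 arrays a side.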
